A study of Mus musculus with 26 samples.

Results

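A set of 10 genes of the leptomeninges was followed through single cells sorted for Pdgfra reporter activity from the mouse brain and spinal cord: Ptgds, Apod, Apoe, Slc6a13, Slc13a4, Nupr1, Gjb2, Gjb6, Gja1 and Vtn. They are 10 of 24350 genes in the tables, leaving out spike-in and mitochondrial rows. They were picked with earlier results of these same data known, for their level in postnatal against embryonic mesenchymal cells and between tracing groups, so their values in both contrasts are given as a description and carry no test. The 10 genes are tested only in contrasts that the choice did not name, which are the region at E13.5, the reporter line at P7 and the region in oligodendrocyte precursors. The reporter line contrast is not independent of the choice, since its traced cells also entered both contrasts that chose the genes.

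The leptomeninges are the thin arachnoid and pial layers over the brain and spinal cord, and their fibroblasts also line penetrating vessels, where they are called vascular and leptomeningeal cells (VLMCs). These cells carry Pdgfra, secrete collagens, and take part in the barrier between blood, cerebrospinal fluid and brain tissue. The barrier layers express carriers for amino acids, organic anions and sulfate, secrete lipid-binding proteins into the cerebrospinal fluid, and are coupled by gap junctions. Ptgds makes prostaglandin D and is a lipocalin abundant in cerebrospinal fluid. Slc6a13 takes up GABA and taurine, while Slc13a4 takes up sulfate with sodium. Gjb2, Gjb6 and Gja1 encode connexins, the subunits of gap junction channels.

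The single cells were captured on 26 chips of 96 wells each, and RNA molecules were counted at their 5′ ends with molecular identifiers, so that counts do not scale with transcript length and levels of different genes can be set side by side as CPM, the molecules of a gene per 1000000 molecules. The first line was a heterozygous Pdgfra-H2B-GFP knock-in, in which a nuclear GFP reports the Pdgfra locus itself, taken at E13.5 (6 brain and 3 spinal cord chips) and at P7 (2 brain and 5 spinal cord chips) without treatment. The background of this line was C57BL/6NJ. The second line was Pdgfra-Cre-ERT crossed to the RCE reporter, on a mixed C57BL/6NJ and CD1 background, so line and background cannot be told apart. Tamoxifen was injected into females at E12.5 of pregnancy (txE12.5, 6 chips) or when their pups were at P3 (txP3, 3 chips). It permanently marks cells that used the Pdgfra driver at that time. Both traced groups were harvested as brain at P7. The cells were sorted for GFP in both lines, tissue was dissociated mechanically at E13.5 and with papain at P7, and each group came from 1 or 2 experiments that held no other group, so age and dissociation cannot be told apart, nor can line, tracing group or region from experiment. Nothing states which chips came from separate animals, so p-values measure the spread between chips, which may be technical.

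Of 2496 wells, 1515 held at least 1000 molecules and 1382 were kept after wells with 2 lineage signatures were set aside, 1307 of them on the 25 chips that the labels place in a group. Molecules in kept cells ranged from 56371 to 720981 a chip, and no well name was shared between chips. Cells were clustered without the 10 genes. The mesenchymal-like class held 256 cells on the assigned chips, 60 at P7 and 196 at E13.5, in clusters 1, 7 and 9. All 22 VLMC markers were found at both ages, with summed levels of 15631 to 29793 CPM on the E13.5 chips and 26623 to 35538 CPM on the P7 chips other than chip 23. The E13.5 cells lay in clusters 1 and 7, while cluster 9 held 42 cells, all from P7, so age and cluster went together. Markers of other lineages moved with age in this class, in both directions. Those of neural progenitors (NP) were at 1323 to 4526 CPM summed over 8 genes on the E13.5 chips and 59.6 to 658 CPM on the P7 chips, and those of committed oligodendrocyte precursors (COP) at 884 to 2658 CPM over 6 genes and 274 to 634 CPM, without chip 23 (651 and 1042 CPM). The NP markers Dlx1 and Tubb3 were at 0 on those P7 chips. Of the COP markers, Neu4 was at 0 at E13.5, and in spinal cord Gpr17 was too. Those of newly formed oligodendrocytes went the other way. They were at 0 to 370 CPM over 7 genes at E13.5 (median 58.3) and 70.5 to 544 CPM (median 384) at P7 without chip 23 (37.2 CPM). Markers of neurons were at 100 to 867 CPM over 7 genes at E13.5 and 0 to 38.9 CPM at P7. Their part in the values below was not tested, other than where wells with the neuron set were removed. Astrocytes also use Gja1, Gjb6 and Apoe, but Aqp4, Gfap, Aldoc, Slc1a2 and Aldh1l1 were at 0 on the P7 chips other than chip 23, where 3 of 8 astrocyte markers were found (775 to 2263 CPM summed, against 773 to 1744 CPM from 6 of 8 at E13.5). Of 6 microglial markers, 5 were at 0 at both ages in this class. Among the chips, 2 stood apart. Chip 23, labelled P7 spinal cord, gave 13 mesenchymal-like cells that clustered with E13.5 cells, and each age value is given with and without it. Chip 9 carries no group in the labels and entered no comparison, though its well names hold the experiment number of the E13.5 spinal cord chips.

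The 10 genes lie on 7 chromosomes of GRCm38, and the closest pair is Gjb2 (chr14:57098600-57104702) and Gjb6 (chr14:57123303-57133611), both on the minus strand and 18601 bases apart, with the predicted gene Gm4491 between them. Apod lies at chr16:31296192-31314808 on the minus strand and Slc13a4 at chr6:35267957-35308131 on the minus strand. The others are Ptgds (chr2:25466709-25470046, minus), Apoe (chr7:19696109-19699188, minus), Nupr1 (chr7:126623249-126630861, minus), Slc6a13 (chr6:121300227-121337733, plus), Gja1 (chr10:56377330-56402513, plus) and Vtn (chr11:78499091-78502324, plus). Among the 10, Slc6a13 overlaps another annotated gene, Gm24855, on the opposite strand. The 250 bases before the RefSeq start were read from the GRCm38.p6 promoter table, in which all 10 genes matched. They are shown for the connexin pair because these genes are neighbours, for Slc13a4 because it was nearly absent from the embryonic cells, and for Apod because it passed the test between regions. Letters are 5′ to 3′ on the strand of the gene, and capitals mark each match, on either strand, to GGGCGG or CCAAT.
Gjb2 (chr14:57104703-57104952, minus strand) follows.
Gjb2: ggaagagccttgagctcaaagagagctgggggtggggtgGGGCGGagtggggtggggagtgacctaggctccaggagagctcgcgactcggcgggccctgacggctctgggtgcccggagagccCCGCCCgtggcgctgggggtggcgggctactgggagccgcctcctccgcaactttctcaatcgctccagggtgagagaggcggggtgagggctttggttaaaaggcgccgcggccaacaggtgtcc
Gjb6 (chr14:57133612-57133861, minus strand) follows.
Gjb6: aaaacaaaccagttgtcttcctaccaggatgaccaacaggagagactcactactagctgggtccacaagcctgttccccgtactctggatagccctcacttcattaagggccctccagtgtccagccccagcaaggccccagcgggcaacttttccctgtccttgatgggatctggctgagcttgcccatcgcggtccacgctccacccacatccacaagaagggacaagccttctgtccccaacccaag
Slc13a4 (chr6:35308127-35308376, minus strand) follows.
Slc13a4: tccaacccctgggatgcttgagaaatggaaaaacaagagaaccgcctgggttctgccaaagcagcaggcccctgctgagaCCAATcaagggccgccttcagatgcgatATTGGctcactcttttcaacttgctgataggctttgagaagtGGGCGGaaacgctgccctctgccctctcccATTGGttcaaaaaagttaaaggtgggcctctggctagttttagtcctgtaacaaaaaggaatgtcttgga
Apod (chr16:31314809-31315058, minus strand) follows.
Apod: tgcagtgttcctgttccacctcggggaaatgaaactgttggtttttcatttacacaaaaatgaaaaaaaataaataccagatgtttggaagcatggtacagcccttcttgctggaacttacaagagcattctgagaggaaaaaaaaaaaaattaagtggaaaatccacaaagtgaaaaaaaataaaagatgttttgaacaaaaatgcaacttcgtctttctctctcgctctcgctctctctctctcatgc

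The connexin promoters had little in common in base composition, at 69.2% G and C for Gjb2 and 56.8% for Gjb6, beside a median of 52.0% over the 27025 promoters in the table, and Apod was lowest of the 4 at 36.4%. GGGCGG was found in 4 of the 10 promoters (Slc6a13, Slc13a4, Nupr1 and Gjb2) and in 32.9% of all promoters. CCAAT was found in 1 (Slc13a4, at 3 places) and in 34.5% of all. TATAAA was found in 1 (Vtn) and in 13.0%, CACGTG in 1 (Nupr1) and in 6.05%, and TGATGNAA, the core of amino acid response elements, in 1 (Nupr1) and in 3.53%. The forkhead core GTAAACA was in none of the 10 and in 3.09% of all, which says only that these letters are absent from these windows. No motif was shared by more than 4 of the 10.

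Across cell classes, the 10 genes were highest in the mesenchymal-like cells of P7. In cluster 9 the summed levels ran from Ptgds at 25209 CPM, Vtn at 7647, Apod at 3192, Apoe at 1944 and Slc6a13 at 1865 down to Gja1 at 1148, Nupr1 at 1098, Gjb6 at 653, Gjb2 at 473 and Slc13a4 at 423 CPM. The 95% counting intervals of Apoe (1720 to 2190) and Slc6a13 (1645 to 2106) overlapped, as did those of Gja1 and Nupr1 and of Gjb6, Gjb2 and Slc13a4, so the order of those neighbours is not resolved even by counting error alone. In the 512 oligodendrocyte precursor (OPC)-like cells of P7, 9 of the 10 genes lay at or under 41.2 CPM. Apoe was the exception at 315 CPM (interval 288 to 345), in 35.4% of those cells. Vtn, the adhesive glycoprotein vitronectin, was the gene shared with mural cells, at 3233 CPM (2330 to 4370) in the 5 pericyte-like cells of P7 and 1159 CPM (979 to 1363) in the 19 of E13.5. Intervals here and below cover counting error only.

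**Figure D1:**
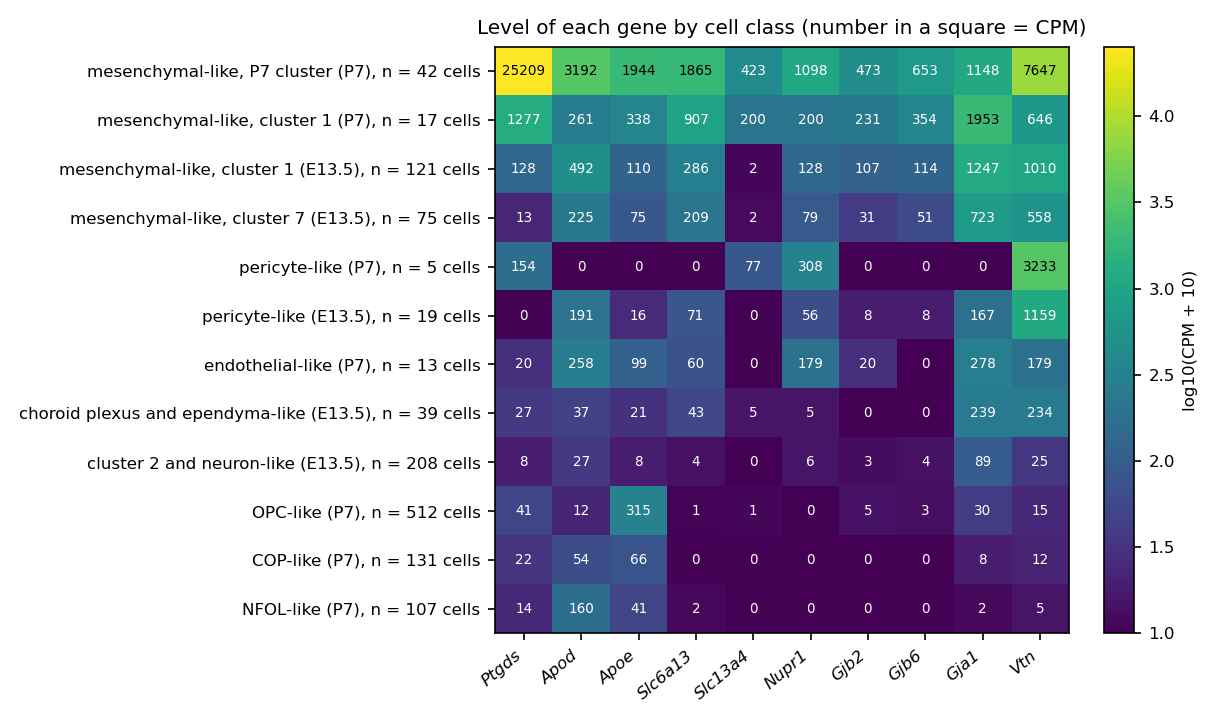
Each square gives the level of 1 gene in 1 cell class at 1 age, as CPM over the summed cells, with the colour on a log10(CPM + 10) scale and the number of cells in the row label. The top row, the P7 mesenchymal-like cluster, is the highest row for every gene but Gja1, which is at 1953 CPM in the 17 P7 cells of cluster 1 and 1148 CPM in the P7 cluster.

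Between ages, all 10 genes had a higher mean over the 6 P7 chips with at least 5 mesenchymal-like cells than over the 9 E13.5 chips. The P7 chips were 4 of txE12.5 (chips 13, 15, 16 and 17), 1 of P7 brain (chip 22) and chip 23. Of the 10 genes, 4 were higher without any overlap of chips, and 6 without chip 23, beside 0.124% of the 14488 genes with a molecule (0.492% of 14438 without chip 23); nothing is read from this, since the contrast chose the genes. The median log2 ratio of the 10 was 2.50, and 2.69 without chip 23. All E13.5 chips were of the H2B-GFP line while 4 of the 6 P7 chips were traced, so age was mixed with line, and within the H2B-GFP line (2 P7 chips, 1 of them chip 23) the median was 1.48. Of the 10 genes, 5 passed the filter on low counts in this comparison and 7 without chip 23. In the same comparison 10.7% of the 568 genes tested were called higher at P7 and 7.75% lower, with edgeR's quasi-likelihood test at an adjusted p under 0.05.

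Ptgds was the most uneven of the lipid carriers. Its level was 18656, 274, 40668 and 47708 CPM on the txE12.5 chips, 0 on the P7 brain chip and 298 CPM on chip 23. The E13.5 chips ran from 0 to 1364 CPM with a median of 4.83, and 4 of 9 were at 0. The means were 17934 ± 21672 (SD, n = 6 chips) and 247 ± 497 CPM (n = 9), a ratio of 72.6, or 86.8 without chip 23. The 3 highest P7 chips stood above every embryonic chip, but the groups overlapped because chip 15, chip 22 and chip 23 lay within the embryonic range. In the H2B-GFP line alone the order was the opposite, with a log2 ratio, on CPM + 10, of -0.69.

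Apoe, the main lipid carrier secreted within the brain, was 722, 1097, 1692 and 1011 CPM on the txE12.5 chips, 3038 on the P7 brain chip and 298 on chip 23. At E13.5 it ran from 0 to 287 CPM with a median of 79.3. All P7 chips lay above all E13.5 chips, with chip 23 only just so, and the means of 1309 ± 963 and 104 ± 87.3 CPM gave a ratio of 12.6, or 14.5 without chip 23. Apod, a lipocalin that binds arachidonic acid and progesterone, was already present in the embryo. It was 4186, 1480, 2537 and 3733 CPM on the txE12.5 chips, 3633 on the P7 brain chip and 335 on chip 23. The E13.5 chips ran from 169 to 1767 CPM with a median of 657, and the groups overlapped. The Apod means of 2651 ± 1499 and 708 ± 497 CPM gave a ratio of 3.74, or 4.40 without chip 23.

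Both solute carriers were higher at P7, from different embryonic levels. Slc6a13 was 2382, 1261, 1269 and 2877 CPM on the txE12.5 chips, 1013 on the P7 brain chip and 912 on chip 23, against 144 to 502 CPM with a median of 361 at E13.5. The groups did not overlap, and the ratio of means was 4.79, or 5.21 without chip 23. Slc13a4 was 397, 54.8, 1269 and 894 CPM on the txE12.5 chips, 476 on the P7 brain chip and 130 on chip 23, and 7 of 9 E13.5 chips were at 0. Over all cells it was seen as 72 molecules of 205416 at P7 and 2 of 1061428 at E13.5, a ratio of 186 with an exact interval of 49.7 to 1565 for counting error, or 227 (60.5 to 1918) without chip 23. The 2 embryonic molecules were in separate spinal cord cells, so Slc13a4 came closest of the 10 to being absent at E13.5.

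The 3 connexins differed in their ratio between ages. Gjb6 was 686, 219, 775 and 622 CPM on the txE12.5 chips, 1489 on the P7 brain chip and 316 on chip 23, all above the E13.5 range of 0 to 204 CPM (median 99.98). Gjb2 was 686, 439, 70.5 and 428 CPM on the txE12.5 chips, 238 on the P7 brain chip and 261 on chip 23, and overlapped with 0 to 317 CPM (median 67.6) at E13.5. Gja1 was 1624, 2303, 2255 and 1050 CPM on the txE12.5 chips, 1072 on the P7 brain chip and 1545 on chip 23, within reach of 602 to 1865 CPM (median 1234) at E13.5. The ratios of means were 6.16 for Gjb6, 3.79 for Gjb2 and 1.29 for Gja1, and 6.82, 3.99 and 1.31 without chip 23, so that Gja1 had the lowest ratio of the 10 and was the connexin most abundant in the embryo.

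Nupr1 encodes a small chromatin-associated protein induced by cell stress. It was 1407, 987, 1269 and 1011 CPM on the txE12.5 chips, 536 on the P7 brain chip and 168 on chip 23, against 0 to 370 CPM (median 85.7) at E13.5. Only chip 23 overlapped the embryonic chips, and the ratio of means was 6.56, or 7.63 without it. Vtn was 6206, 5373, 5216 and 10965 CPM on the txE12.5 chips, 6254 on the P7 brain chip and 819 on chip 23, against 443 to 1508 CPM (median 1043) at E13.5. Chip 23 again was the only one within the embryonic range, and the Vtn ratio was 5.63, or 6.60 without it. Without it, every P7 chip lay at 5216 CPM or more.

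**Figure D2:**
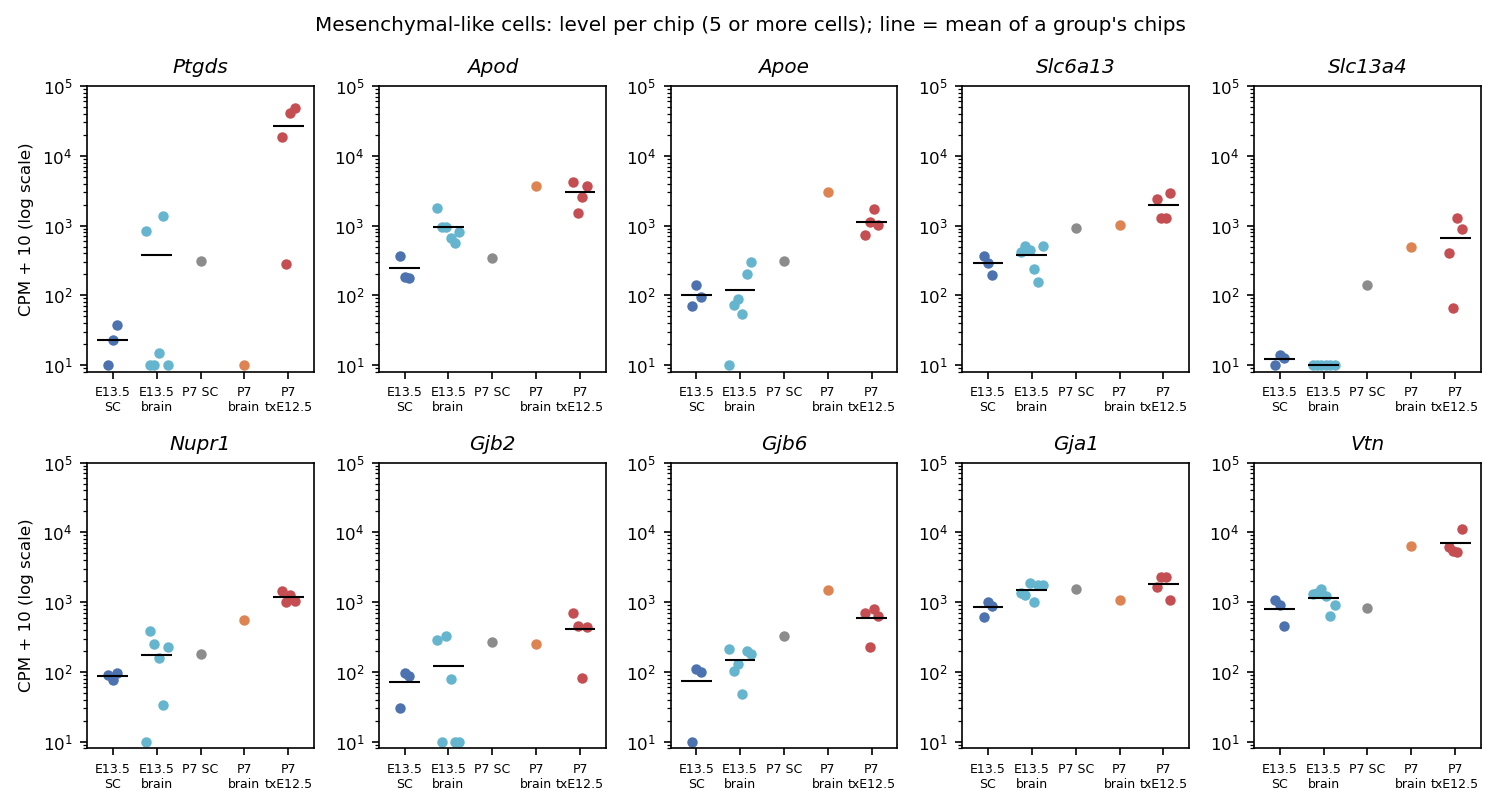
Each panel shows 1 gene, each point is 1 chip with at least 5 mesenchymal-like cells, and each line is the mean of a group's chips, on a log axis of CPM + 10. Slc13a4 sits at the bottom of the axis on 7 of 9 E13.5 chips, Gja1 lies between 602 and 2303 CPM on every chip, and Ptgds spans from 0 to 47708 CPM among the P7 chips.

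Among other genes of the same pathways, 12 of the 114 listed had counts high enough to be tested between ages, and 3 rose, 1 fell and 8 did not pass, beside 10.7% called higher and 7.75% lower over all genes tested. The lists were drawn up with earlier results of these data known, so these counts are not independent evidence of a direction. Slc7a11, the cystine and glutamate exchanger, was 329 to 1787 CPM on the P7 chips and 136 to 501 CPM on the E13.5 chips, and rose by 1.81 ± 0.33 (log2, SE; edgeR adjusted p = 0.00073). Slc38a2, a carrier of neutral amino acids, was 298 to 1590 against 136 to 479 CPM and rose by 1.11 ± 0.37 (edgeR adjusted p = 0.042). Cdh11, a mesenchymal cadherin, fell by 1.31 ± 0.42 on the log2 scale (edgeR adjusted p = 0.030), with chips at 77.8 to 596 CPM at P7 and 247 to 1125 CPM at E13.5. The chips of both ages overlapped for each of these genes. Without chip 23, where 15.2% of 558 genes were called higher and 18.8% lower, 5 of 13 rose, with Slc22a6, an organic anion transporter, at 2.12 ± 0.70 (edgeR adjusted p = 0.025) and Serpine2, a protease inhibitor, at 3.43 ± 0.43 (edgeR adjusted p = 5.4e-06) added, and 1 fell. With chip 23 kept, 2 of 3 solute carriers tested rose, with a median log2 difference of 1.11 beside -0.02 over all genes tested. In that setting 1 of 2 arachnoid barrier and adhesion genes tested fell and 0 rose, with a median of -0.67. No other connexin or pannexin and no prostaglandin gene passed the filter on low counts.

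Within the P7 cluster the genes fell into those present in nearly every cell and those present in some. Vtn and Apod were seen in 42 of 42 cells, Slc6a13 in 40, Gja1 in 37, Apoe in 36, Nupr1 in 32, Gjb2 in 27, Gjb6 in 25, and Ptgds and Slc13a4 in 14 each, at a median of 2849 molecules a cell. A cell held a median of 8 of the 10 genes, against 4 in both E13.5 regions. When each cell was thinned to 1000 molecules the medians were 6 for the P7 cluster, 2 for E13.5 brain and 1 for E13.5 spinal cord, so the order was the same at 1 depth. Thinning lowered the share of P7 cluster cells with Gjb2 from 64.3% to 19.0% and with Slc13a4 from 33.3% to 23.8%, while Vtn was seen in all 42 cells after thinning too. In the OPC-like cells of P7, at a median of 2676 molecules, the unthinned shares were 4.49% for Vtn, 2.54% for Apod and 1.17% for Gjb2.

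Ptgds set itself apart by its spread. It reached 10 or more molecules in 11 of the 42 cells, and the 3 highest cells, with 1090, 870 and 559 molecules, held 71.7% of the 3514 in the cluster. In the cell with 870 molecules, Ptgds made up 44.0% of all molecules and the 10 genes together 46.8%. The other 31 cells held 5 Ptgds molecules together, and all 7 P7 brain cells of the H2B-GFP line were at 0. For comparison, the 3 highest cells held 16.9% of the Vtn molecules, 21.1% of those of Apod and 54.2% of those of Slc13a4. Outside the cluster, 5 mesenchymal-like cells had 10 or more Ptgds molecules, all in cluster 1, of which 2 were E13.5 brain cells with 12 and 51.

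The 11 cells with at least 10 Ptgds molecules were set beside the other 31, a split chosen after their values were seen and given as a description. Slc13a4 was at 827 CPM (588 to 1130) in the Ptgds-high cells and 217 CPM (132 to 335) in the others, and Nupr1 at 1569 (1232 to 1969) and 857 CPM (678 to 1068). Slc13a4 was seen in 5 of the 11 and 9 of the 31 cells, and single cells of the 11 held 13, 11 and 8 of its 39 molecules there. Apoe was lower in the Ptgds-high cells, at 1251 (952 to 1613) against 2299 CPM (2000 to 2630). The other 31 cells included all 7 P7 brain cells of the H2B-GFP line, which held 88 of their 212 Apoe molecules, at 3778 CPM. The part of the line in the Apoe difference was not tested. Vtn was 6952 (6220 to 7747) and 8003 CPM (7436 to 8602), and the connexins had overlapping counting intervals in both sets. Ptgds itself was at 74378 CPM in the 11 cells, which lowers the CPM of every other gene there. The Ptgds-high cells were also deeper, with a median of 3774 against 2788 molecules, and came from the traced groups alone.

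Both Gjb2 and Gjb6, which often share a channel in other tissues, were seen in 18 of the 42 cells, Gjb2 alone in 9, Gjb6 alone in 7 and neither in 8. Gja1 was seen in 30 of the 34 cells with either one. At levels of 1 or 2 molecules a cell, a cell without a molecule cannot be called negative, so these counts do not show separate cell types. Of the 42 cells, 27 held Gjb2, 25 held Gjb6 and 37 held Gja1, and sharing of cells beyond these shares was not tested.

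**Figure D3:**
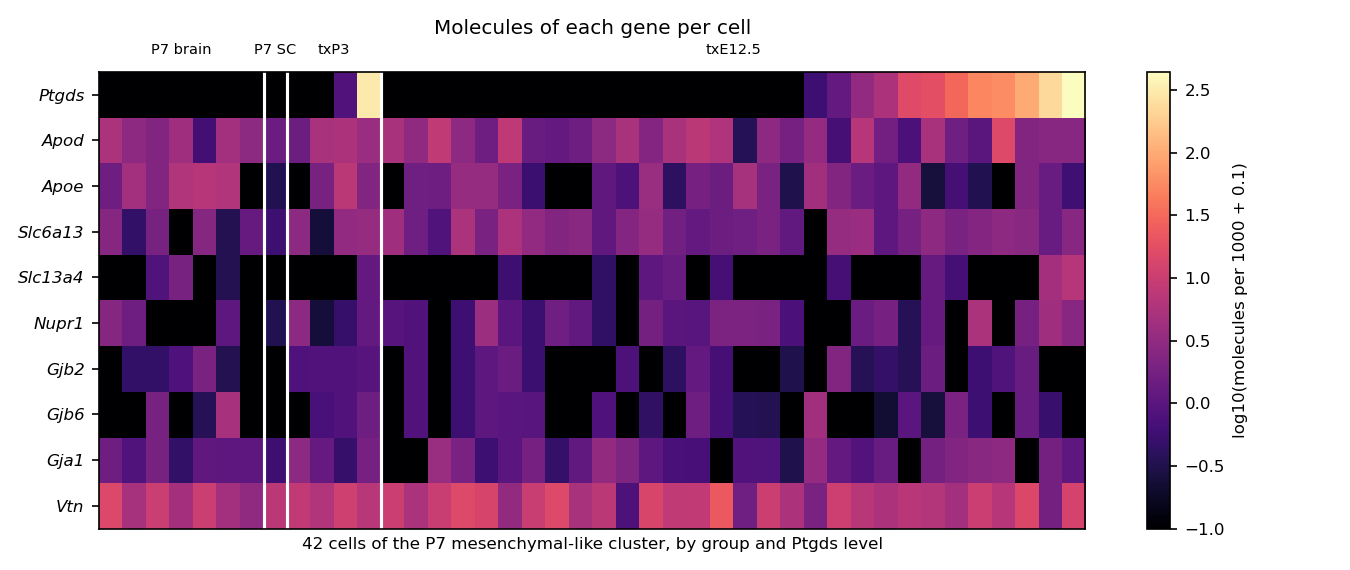
Each column is 1 of the 42 cells of the P7 mesenchymal-like cluster, grouped by chip group and ordered by Ptgds, and each row is 1 gene, coloured by log10 of molecules per 1000 plus 0.1. Ptgds is at 0 in 28 cells and then climbs to 44.0% of a cell's molecules, while Vtn and Apod are above 0 in all 42 columns.

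By tracing group, the mesenchymal-like cells were 35 from txE12.5 and 4 from txP3, so the values are sums of cells with counting intervals and no txP3 chip reached 5 cells. Ptgds was 22684 CPM (21801 to 23593) in txE12.5 and 76626 CPM (72148 to 81309) in txP3, but 1090 of the 1092 txP3 molecules came from 1 cell. Apoe was 1358 CPM (1149 to 1594) against 2737 (1946 to 3741), and Apod 2789 (2485 to 3119) against 4421 (3397 to 5656). Vtn, at 7036 (6548 to 7550) and 7368 (6026 to 8919), and Gja1, at 1476 (1258 to 1722) and 1333 (803 to 2082), had overlapping intervals. The intervals of both solute carriers, Nupr1, Gjb2 and Gjb6 overlapped too. The median log2 ratio of txE12.5 to txP3 over the 10 genes was -0.28, and 0.37 when chip 20, with 3 of the 4 txP3 cells, was left out, so no direction held over the set.

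The reporter line was compared within P7 brain. With at least 5 cells a chip there were 1 H2B-GFP and 4 traced chips, under the minimum of 2 chips a group set for a test, so chips with at least 2 cells were used as an added choice after the data were seen (2 against 6 chips). Ptgds gave the widest difference, with 0 of 23294 molecules in the 7 H2B-GFP cells and 3581 of 123978 in the 39 traced cells. By counting error alone a count of 0 there allows up to 129 CPM, against 28884 CPM over the summed traced cells. Most Ptgds molecules lay in few cells, so 7 cells at 0 set no lower limit to the difference. The difference did not pass across all genes (edgeR adjusted p = 0.10, n = 2 and 6 chips). It is not an independent test, since the traced cells also entered the contrasts that chose the genes. Ptgds passed the filter on low counts through those cells alone. The chips were at 0 and 0 CPM in the H2B-GFP line, while the traced chips ran from 274 to 85159 CPM, so they did not overlap, as was also true of 7.25% of the 386 genes tested in that direction.

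None of the other 9 genes passed between the lines. The level of Vtn was 6740 CPM in the H2B-GFP cells and 7074 CPM in the traced cells, and that of Apod 3048 and 2976 CPM. Apoe was higher in the H2B-GFP cells, at 3778 against 1516 CPM, by 1.03 ± 0.51 on the log2 scale over chips, which did not pass (edgeR adjusted p = 0.33). Nupr1 was lower, at 558 against 1153 CPM (-1.22 ± 0.49, edgeR adjusted p = 0.26). For the remaining 7 genes the log2 difference ran from -0.91 for Slc13a4 to 0.43 for Gjb6, and edgeR called 0 of the 386 genes, with 64 at an unadjusted p under 0.05. The misses do not show that the lines were alike, since chips held as few as 2 cells.

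Between regions at E13.5, Apod was the 1 member that passed. It was 361, 171 and 169 CPM on the 3 spinal cord chips and ran from 551 to 1767 CPM, with a median of 870, on the 6 brain chips, so the regions did not overlap. Apod fell by 2.09 ± 0.40 on the log2 scale in spinal cord against brain (edgeR adjusted p = 0.0090, n = 3 and 6 chips), in a comparison where 0.638% of 940 genes were called lower and 2.45% were lower without overlap. The call was lost without spinal cord chip 7 (log2 difference -1.86, adjusted p = 0.17) or chip 8 (-1.83, adjusted p = 0.23) in edgeR. The regions held different mixes of clusters, with 71 of 117 spinal cord cells and 4 of 79 brain cells in cluster 7. By chip these were 2 of 16 cells on chip 4, 32 of 45 on chip 7 and 37 of 56 on chip 8. The part of this mix in the Apod difference was not tested. Neuron markers were higher in 2 of the 3 spinal cord chips, and with the wells holding both neuron and VLMC sets removed Apod was at -1.77 ± 0.42 (edgeR adjusted p = 0.032). Chip 1 was far above the other brain chips at 1767 CPM, and without it Apod was at -1.91 ± 0.36 (edgeR adjusted p = 0.014).

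Of the other members, 3 had enough counts to be tested and none passed in edgeR. Gja1 was 602, 996 and 879 CPM in spinal cord and 981 to 1865 CPM (median 1564) in brain, a log2 difference of -0.87 ± 0.32 (edgeR adjusted p = 0.39, unadjusted p = 0.013). Vtn was 1043, 900 and 443 CPM against 622 to 1508 (median 1259), at -0.58 ± 0.33 (edgeR adjusted p = 0.74). Slc6a13 was 361, 283 and 184 CPM against 144 to 502 (median 422), at -0.44 ± 0.41 (edgeR adjusted p = 0.85). The ranges of both regions overlapped for all 3 genes. In all, 9 of the 10 genes had a lower mean in spinal cord, the exception being Slc13a4 with its 2 molecules, and none but Apod was free of overlap. Nothing is read from the count of 9. The share of all genes with a lower mean was not taken, and 6 of the 10 did not pass the filter on low counts. Ptgds was at 0 to 26.9 CPM on the spinal cord chips, while in brain 2 of 6 chips stood at 816 and 1364 CPM and the other 4 at 0 to 4.83 CPM. Among the other pathway genes 14 were tested, and edgeR called 0, with 3 at an unadjusted p under 0.05.

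Not all molecules of the 10 genes lay in mesenchymal-like cells. In the traced brains many were in wells with both the oligodendrocyte and the VLMC gene sets, which had been set aside, and whose VLMC set is itself a sign of mesenchymal RNA. In txE12.5, 74 of 405 wells were of this kind, and they held 44.3% of the Ptgds, 70.0% of the Apod and 59.4% of the Vtn molecules. The 10 genes together stood at 18870 CPM there, against 39954 CPM in the mesenchymal-like and 740 CPM in the OPC-like cells of the same group. In spinal cord of P7, which had no such well, 77.2% of the 136 Apod molecules were instead in cells like COPs and newly formed oligodendrocytes (NFOL). Of these, 90 were in the 69 NFOL-like cells, with 42 in 1 cell and a molecule in 14.5% of them. Slc6a13, Slc13a4, Gjb2 and Gjb6 had all of their 51, 7, 14 and 17 molecules in mesenchymal-like cells on those chips. Chip 23 held 13 of the 14 mesenchymal-like cells of this group and 0 OPC-like cells. The split in P7 spinal cord thus sets the mesenchymal-like cells of mostly that chip beside the oligodendrocyte-lineage cells of other chips.

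**Figure D4:**
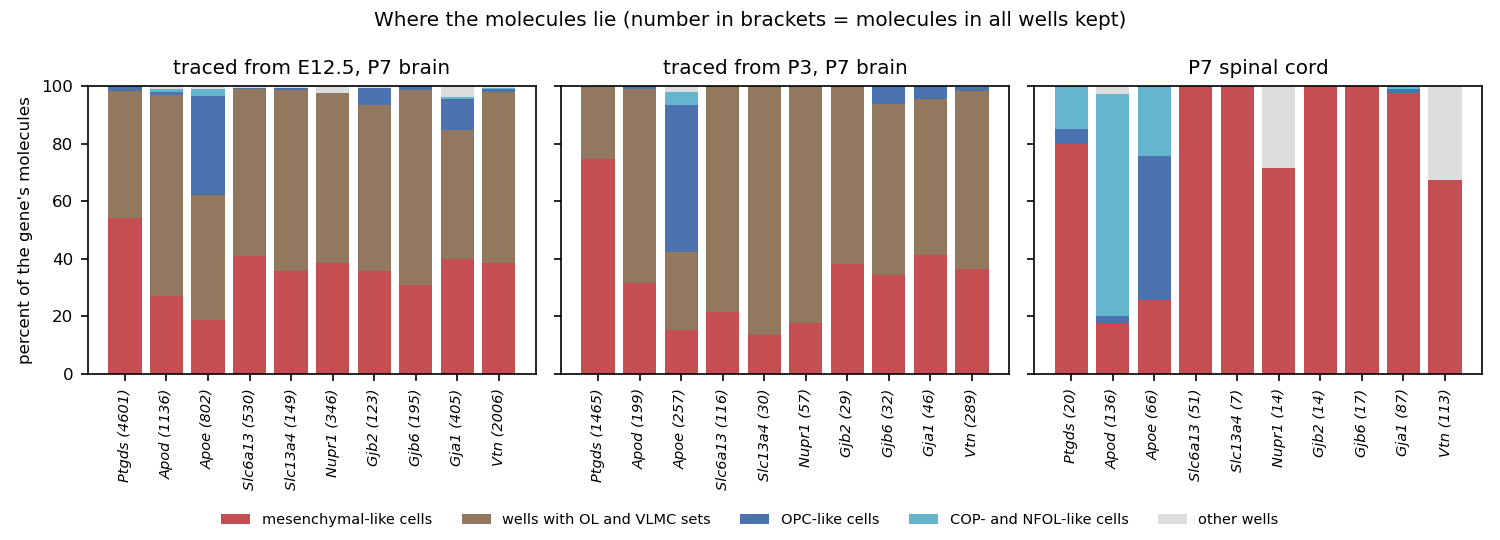
Each bar divides the molecules of 1 gene, in percent, among cell classes and the wells with both oligodendrocyte (OL) and VLMC sets, for txE12.5, txP3 and P7 spinal cord, with the number of molecules in brackets. Apoe is the gene with a large OPC-like part, at 34.3% in txE12.5 and 51.0% in txP3, and Apod in spinal cord lies at 77.2% in COP-like and NFOL-like cells. In P7 spinal cord, 13 of the 14 mesenchymal-like cells were from chip 23.

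In OPC-like cells the 10 genes differed in their level against the mesenchymal-like cells of the same group, summed over its chips. In txE12.5, Ptgds, Vtn, Apod and Slc13a4 stood in OPC-like cells at 0.45%, 0.46%, 0.70% and 0.37% of their mesenchymal-like level, and Slc6a13 and Nupr1 at 0.09% and 0. Apoe was at 36.0%, Gja1 at 5.18% and Gjb2 at 3.11%, so the genes were not in 1 ratio across the classes. Among the genes, Apoe was the clear OPC-like transcript, with 489 CPM (433 to 551) in txE12.5 cells and 261 CPM (218 to 310) in txP3 cells.

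Between tracing groups in OPC-like cells, Ptgds was 16.8, 42.7, 152, 151, 170 and 87.3 CPM on the 6 txE12.5 chips and 0, 0 and 7.16 CPM on the 3 txP3 chips. No txE12.5 chip fell within the txP3 range. In molecules these are 57 in 205 cells, at most 5 in a cell, against 1 in 159 cells. Gja1 had a mean of 74.6 CPM in txE12.5 and 4.65 CPM in txP3, with chip 16 at 255 CPM, and Apoe 469 ± 162 (n = 6) and 263 ± 115 CPM (n = 3), and both overlapped between groups. Over all 3678 genes tested, 0.761% were higher in txE12.5 without overlap and 0.0816% were called higher by edgeR. Since this contrast helped to choose the 10 genes, nothing is read from these shares for Ptgds. Among the genes called were Xist and Tsix, both from the X inactivation centre, and DESeq2 called neither (adjusted p = 0.99999 for both; 0 genes called, 247 at an unadjusted p under 0.05). Xist was 0 to 2480 CPM (median 966) on the txE12.5 chips and 0 on all txP3 chips. This X-linked difference moved with the tracing group, and its part in the Ptgds values was not tested. More molecules of the 10 genes were in wells with OL and VLMC sets in txE12.5 (74 wells) than in txP3 (8 wells), and this too was not tested.

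Between regions in OPC-like cells of the H2B-GFP line at P7, Apoe was the 1 gene of the 10 with enough counts to be tested. It was 144, 82.4, 90.5 and 167 CPM on the spinal cord chips and 334 and 189 CPM on the brain chips. Every spinal cord chip was below both brain chips, as was true of 11.7% of the 2397 genes tested. The log2 difference of -1.32 ± 0.44 did not pass (edgeR adjusted p = 0.082, n = 4 and 2 chips). It passed only with doublets kept (-1.42, edgeR adjusted p = 0.0497), while other alternatives gave adjusted p of 0.058 to 0.64. In the same cells, of 19 other pathway genes tested, 2 fell, beside 2.25% of all genes tested. Slc1a3, a glutamate transporter, fell by 1.88 ± 0.34 (edgeR adjusted p = 0.0013), and Clu, the lipid-binding chaperone clusterin, fell by 1.86 ± 0.55 (edgeR adjusted p = 0.044). None of them rose in edgeR, with 1 higher at an unadjusted p under 0.05. The OPC-like class included the cycling cells of cluster 4, which were 32 of 79 cells in spinal cord and 9 of 69 in brain. Region and this mix of cells were not separated for Slc1a3 and Clu.

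**Figure D5:**
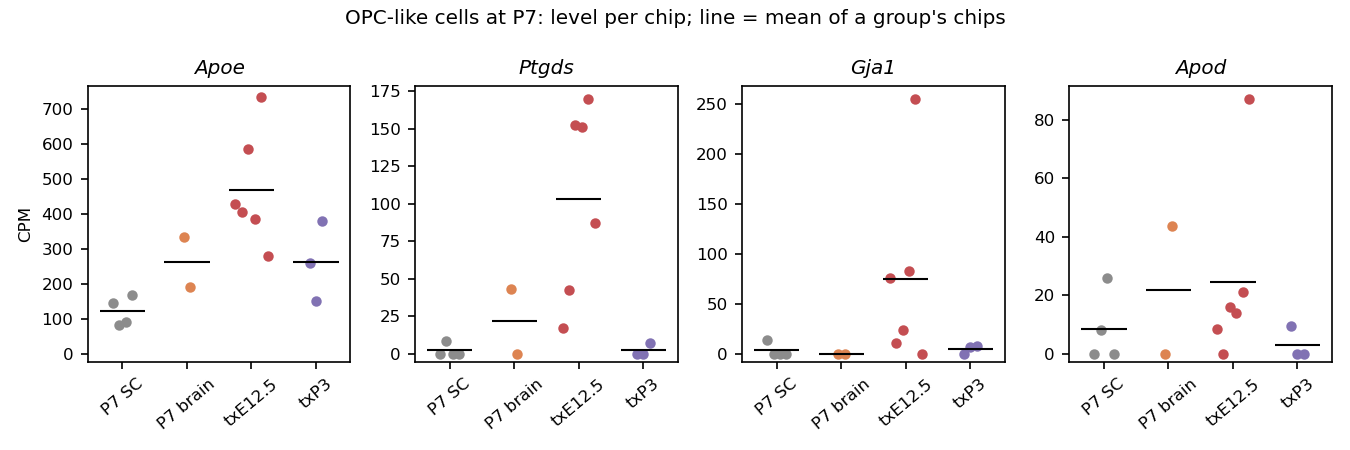
Points are the levels of 4 genes in the OPC-like cells of each P7 chip with at least 5 such cells, in CPM, by group, and lines are group means. Ptgds separates the 6 txE12.5 chips (16.8 to 170 CPM) from the 3 txP3 chips (0 to 7.16 CPM), and Apoe in spinal cord (82.4 to 167 CPM) lies below brain (189 and 334 CPM).

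The genes with the pattern most like each member were sought by Spearman correlation of log2(CPM + 10) over 64 sums of 1 class on 1 chip, which share libraries and depth, among 8417 genes and 8 classes. The closest were Tgfbr2 for Nupr1 (rho = 0.91), Nid1 for Vtn (0.90), Nid2 and Colec12 for Slc6a13 (both 0.89), Col3a1 for Gja1 (0.86) and Cyp1b1 for Gjb6 (0.85), the last of which also led for Apod (0.76). Ctsh led for Slc13a4 (0.76), Ahnak for Gjb2 (0.75) and Ptn for Apoe (0.73). Ptgds had the weakest partner, Sdf2 at 0.57, and its correlation with Slc13a4 was 0.48 and with Apod 0.29. Among pairs of the 10 genes, the lowest were Apoe with Gja1 and Apoe with Apod (both 0.15) and the highest Gja1 with Vtn (0.87) and Slc6a13 with Nupr1 (0.84).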

How the data were processed

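The deposited files are tables of counts, 1 per chip: molecules per gene and well, counted by the authors from single-cell tagged reverse transcription (STRT-seq) reads with molecular identifiers on Fluidigm C1 chips, with mm10 as the build in the submitters' processing notes. All columns were mapped to a chip. Counts were used as deposited; 37 mitochondrial rows (7.73% of molecules) and 100 spike-in rows were left out.

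The 10 genes and the pathway lists were chosen with earlier results of these data known. Wells with at least 1000 molecules were kept (56371 to 720981 molecules in kept cells of a chip). Doublets were removed; these were wells in which an oligodendrocyte set and a neuron or VLMC set each reached 3 molecules spread over 2 or more genes. Cells were clustered with scanpy 1.11.5 and leidenalg 0.10.2 (2000 variable genes, 30 components, 15 neighbours, resolution 1.0) without the 10 genes, and classes were named from fixed markers. Molecules were summed per chip over a class with at least 5 cells and tested with edgeR 4.0.16 (R 4.3.3; quasi-likelihood F-test, TMM, filterByExpr, Benjamini-Hochberg over all genes tested, threshold 0.05). The scripts were tested on simulated counts. Shares were also taken after thinning each cell to 1000 molecules, leaving out no kept cell. Intervals are exact 95% Poisson or binomial intervals, and the floor for a count of 0 is 3 molecules over the group. Ratios on the log2 scale were of mean CPM + 10.

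Named genes were all 10 members, the pathway genes that passed (up to 4 a list), and for each member the 2 genes with the highest Spearman correlation, of which mostly the first is printed. Alternatives were DESeq2 1.42.0, no filter on low counts, total-count scaling, other cell numbers, clustering resolutions, molecule and doublet filters, a marker gate, and chips left out in turn. Gene positions came from GENCODE M21 and promoters from RefSeq. Chip 9 has no group and was not compared. The values of 1 pathway gene that passed, and the summary of its list, are not reported here.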

Additional observations from a re-analysis of the deposited data

Results flagged for a closer look

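In 32 sets, each of 1 gene in 1 group of 4 to 10 chips, 7 values lay far from the rest by Dixon's test. The sets share chips. The test's rate of 1 in 20 assumes normal values and does not hold for sparse counts, so the 7 are a description. Apod was 1767 CPM in the mesenchymal-like cells of E13.5 brain chip 1, from 26 molecules, while the other 5 brain chips lay between 551 and 956 CPM. In the OPC-like cells of txE12.5, Gja1 was 255 CPM on chip 16, from 24 molecules, against 0 to 82.4 CPM on the other chips, and Apod was 87.3 CPM on chip 17, from 5 molecules, against 0 to 21.2 CPM. The remaining 4 each rest on 1 molecule where the other chips had none. These were Slc13a4 and Slc6a13 at 13.7 CPM on chip 15 of txE12.5, Gja1 at 13.1 CPM on chip 10 of P7 spinal cord, and Ptgds at 8.24 CPM on chip 11 of P7 spinal cord, all in OPC-like cells.

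Signal of the 10 genes also lay in data that the comparisons left out. The wells of txE12.5 with both oligodendrocyte and VLMC sets held 5366 molecules of the 10 genes, or 18870 CPM, against 740 CPM in the OPC-like cells of the same group. The 44 mesenchymal-like cells of chip 9, which the labels place in no group, held 1199 molecules of the 10 genes, or 2767.1 CPM. The E13.5 groups stood at 2316.6 CPM in spinal cord and 4068.8 CPM in brain on the same measure.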

How the results depend on the processing

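The number of genes called between ages was 105 and became 206 without removal of doublets, 263 with DESeq2, 424 with no filter on low counts, 6 with at least 10 cells a chip, 4 in the H2B-GFP line alone and, by choices added after seeing the data, 190 without chip 23 and 166 with P7 cluster cells alone; with each of the 15 chips left out it ran from 78 to 190, and the leaving out of chips in groups of 1 or of over 5 chips was added after seeing the data. For region at E13.5 the 8 became 31 with DESeq2, 69 with no filter and 4 with at least 10 cells a chip, and ran from 3 to 11 over the 9 chips left out in turn, with 3 without spinal cord chip 7 or chip 8. For region in OPC-like cells the 120 became 68 at 2000 molecules a well and 32 without cycling cells, and ran from 47 to 133. For tracing group in OPC-like cells the 3 became 0 with DESeq2 and 8 with no filter, and ran from 0 to 4 over 9 chips, with 0 without chip 14 (118 at an unadjusted p under 0.05 in edgeR) and 1 without chip 5 or chip 13. The median log2 ratio between tracing groups in mesenchymal-like cells ran from -0.44 to 0.37, and that between reporter lines from -0.78 to 0.06. The median share of P7 cells with a molecule was 65.0% and was 50.8% after thinning. The median log2 ratio of the 10 genes between ages fell to 1.48 in the H2B-GFP line alone. Of 1099 single-gene alternatives, 1052 kept their direction and side of the threshold or, without a test, moved by no more than 1 SD or their counting interval, 44 moved by more, 2 lost and 1 gained a call, and the cause was not tested. Genes without a test were compared by CPM, which DESeq2, the filter on low counts and the scaling cannot change. Genes at 0 in both groups could not move when a chip was left out. Part of the 1052 was thus fixed in advance, and the tally is no measure of robustness.

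No paired analysis was possible because the chips are numbered uniquely and the groups share no replicate numbers. Between tracing groups in mesenchymal-like cells at most 1 txP3 chip was left, under the minimum of 2, and such fits were not used; reporter line with at least 10 cells a chip left no H2B-GFP chip. The P7 mesenchymal-like sums held 14188 to 53726 molecules a chip, and a gene with a few molecules was not resolved at this depth.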

Other observations

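The 44 mesenchymal-like cells of chip 9, which the labels place in no group, gave 1119 CPM of Gja1, 916 of Vtn, 240 of Slc6a13, 233 of Apod, 85.4 of Nupr1, 71.5 of Apoe, 57.7 of Gjb6 and 36.9 of Gjb2. Slc13a4 was at 4.62 and Ptgds at 2.31 CPM on this chip, so the genes fell in nearly the same order as in E13.5 spinal cord. The well names of chip 9 hold experiment number 137, as do those of every E13.5 spinal cord chip and of no chip in another group. The 13 mesenchymal-like cells of chip 23 held a median of 4 of the 10 genes, as did the cells of both E13.5 regions, and 3 after thinning to 1000 molecules, between 1 and 2 at E13.5 and 6 in the P7 cluster.

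The 5 traced mesenchymal-like cells that fell in cluster 1 rather than in the P7 cluster held a median of 4 of the 10 genes. In the 8 txP3 wells with both oligodendrocyte and VLMC sets, Vtn was at 4054 CPM, Apod at 3035 and Slc6a13 at 2061 CPM, each seen in all 8 wells, and Slc13a4 in 3.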
